A study of Mus musculus with 19 samples.

Results

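The T cell receptor complex and its coreceptors were followed through 10 genes of the count matrix. They form a list of names, with no threshold on a value: Cd3d, Cd3e, Cd3g, Cd247, Cd4, Cd8a, Cd8b1, Cd5, Lck and Zap70. These are 10 of the 18521 genes listed, and all 10 passed the filter on low counts that kept 15760 genes for testing. RNA had been sequenced from 1 cm2 pieces of skin of female Ptch1+/- K14-CreER2 p53fl/fl mice, in 19 libraries from 16 mice, to ask what a laser and a topical drug do to skin that forms basal cell carcinoma (BCC). The replicate is the mouse, and 3 mice had a pair of libraries that were summed.

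Skin treated with ablative fractional laser (AFL), which drills microscopic columns into the skin, came from 3 mice aged 228 to 326 days. It had 1 treatment at 5% density and 40 mJ per microbeam. Skin given topical vismodegib, a drug that blocks the Hedgehog receptor component Smoothened, came from 4 mice aged 268 to 326 days after 8 treatments. Untreated induced skin, called BCC skin here, came from 4 mice aged 278 to 320 days. These 3 groups had been induced with 3 injections of 300 µg tamoxifen and 4 Gy of x-rays, 80 to 126 days earlier for AFL, 109 to 137 days for vismodegib and 130 to 144 days for BCC skin. Since AFL and BCC mice do not overlap in this time, the laser and the time since induction cannot be told apart in any AFL against BCC difference. Healthy skin came from 5 mice that were not induced, aged 128 to 137 days. All titles give day 4. Every mouse, healthy ones included, carries the Ptch1 deletion on one allele, the floxed p53 gene and the Cre recombinase. The keratin 14 promoter drives that recombinase, so the deletion is aimed at keratinocytes and not at T cells. Induction, x-rays and higher age go together in these mice, and their effects cannot be told apart. No mice given vehicle or a sham laser were analysed here.

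The T cell receptor recognises peptides held by MHC proteins but has almost no tail inside the cell. It therefore signals through the CD3 gamma, delta and epsilon chains (Cd3g, Cd3d, Cd3e) and the zeta chain (Cd247), whose tails carry tyrosine motifs. CD4 binds MHC class II and CD8, made of alpha and beta chains (Cd8a, Cd8b1), binds MHC class I. Both bring the kinase Lck to the receptor, Lck phosphorylates the CD3 and zeta tails, and the kinase Zap70 docks there and passes the signal on. CD5 is a surface protein that dampens this signal. In mouse skin, most T cells of the epidermis are gamma delta cells that carry CD3 but usually neither CD4 nor CD8, whereas the dermis also holds CD4, CD8 and other gamma delta T cells.

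Library totals lay between 27185921 and 33556611 expected counts. Trp53, the gene deleted by induction, was lower than in healthy skin in all 3 induced groups, at 38.9 ± 6.84 CPM in AFL skin, 40.1 ± 16.3 CPM in vismodegib skin and 29.8 ± 5.40 CPM in BCC skin, against 119.5 ± 17.8 CPM in healthy skin (SD). Markers of keratinocytes were present in every mouse, with a summed level of 8 genes between 11260 and 59920 CPM. One vismodegib mouse, mouse 9, stood apart. Its scaling factor was 0.591, where the other 15 averaged 1.04, and its short genes stood 0.821 above its long genes on the log2 scale relative to the other mice, where the others lay between -0.405 and 0.197. Some values that rest on this mouse, such as the Cd3g mean in vismodegib skin, are given with and without it.

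Per length, Cd3g was the most abundant of the 10 genes and the CD8 chains the least. Over all 16 mice, levels per kilobase of exon averaged 13.9 CPM for Cd3g, 4.00 CPM for Cd3e, 3.72 CPM for Lck, 2.36 CPM for Cd3d, 2.08 CPM for Cd4, 1.63 CPM for Cd5 and 1.53 CPM for Cd247. They averaged 0.920 CPM for Zap70, 0.237 CPM for Cd8b1 and 0.214 CPM for Cd8a on the same scale. The coreceptor genes of CD8 T cells thus rested on few reads, with 8 to 50 counts a mouse for Cd8a and 1 to 31 for Cd8b1. All other members had at least 32 counts in every mouse. Each member varied by 2.85-fold (Lck) to 35.6-fold (Cd8b1) between its highest and lowest mouse in CPM.

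**Figure D1:**
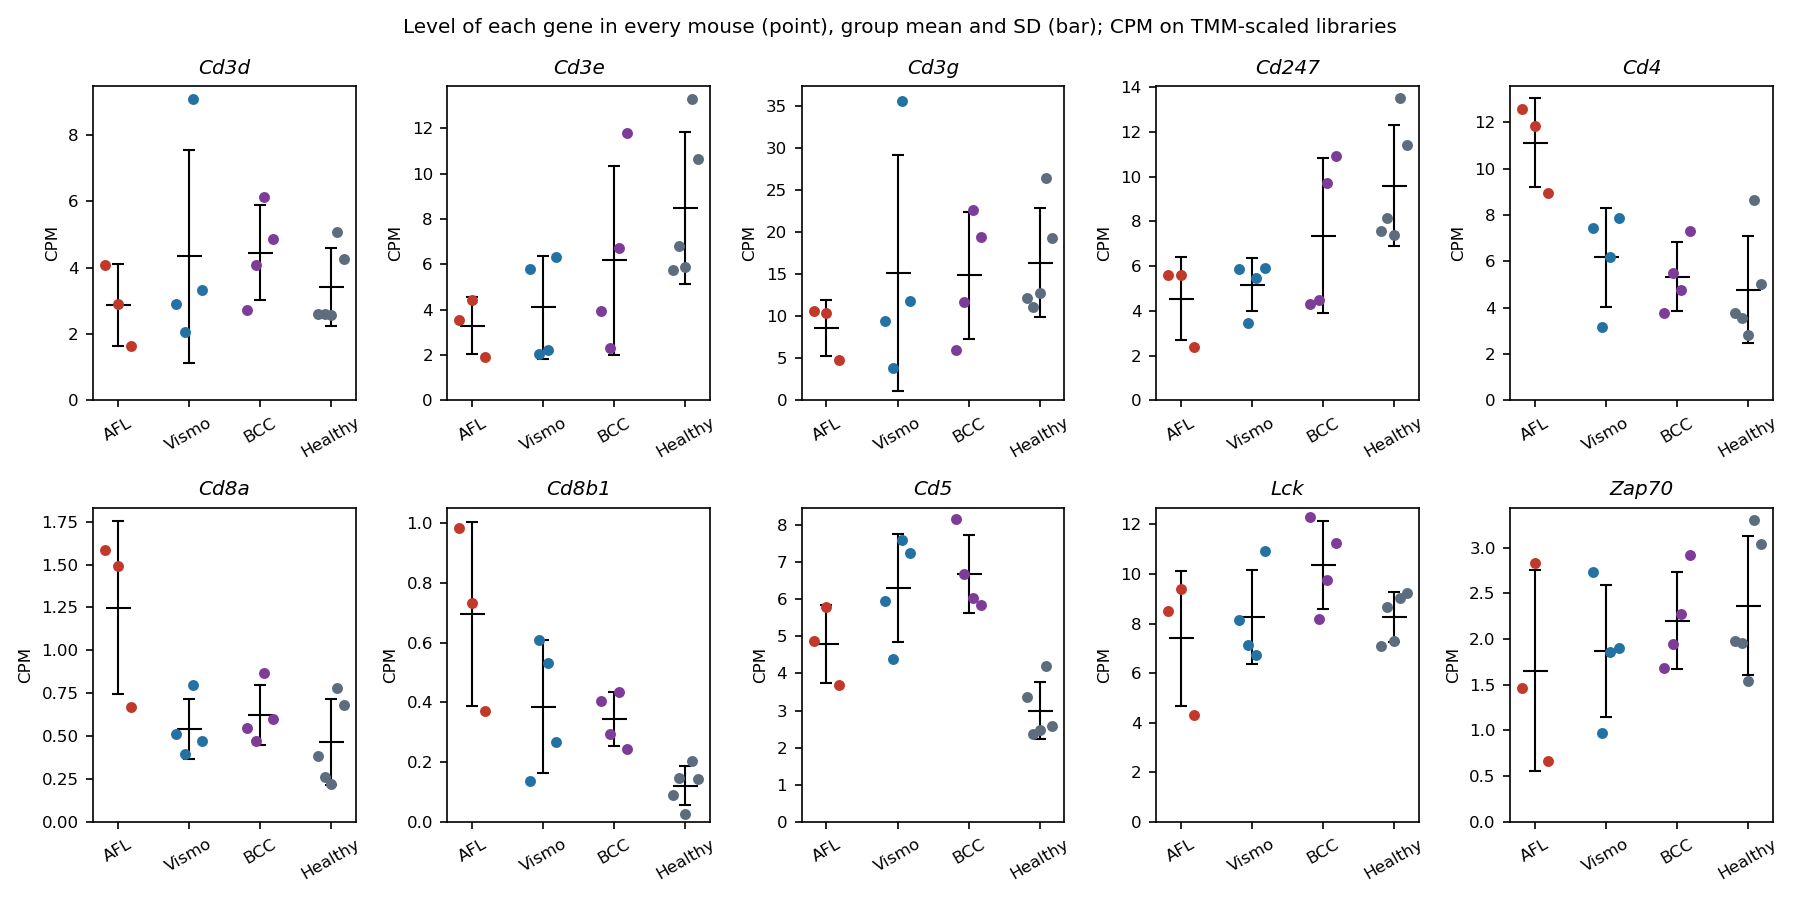
Level of each of the 10 genes (CPM, y axis) in AFL, vismodegib, BCC and healthy skin (x axis), with 1 point a mouse and a bar for the group mean and SD. All 3 AFL mice lie above every other mouse for Cd4, Cd5 is lowest in healthy skin, and 1 vismodegib mouse at 35.6 CPM carries the Cd3g mean of its group.

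Counted over the 10 members, 1 rose (Cd5) and 0 fell in BCC against healthy skin, where 2.82% of all genes tested were called and 2.66% called higher. In vismodegib against healthy skin 1 rose (Cd5) and 0 fell, with 11.6% of all genes called and 7.57% called higher. In AFL against healthy skin 2 rose (Cd4 and Cd8b1) and 0 fell, with 9.24% of all genes called and 7.95% called higher. In AFL against BCC skin edgeR called 0 of 10, with 7.75% of all genes called. There 1 member had an unadjusted p under 0.05 (Cd4, log2 fold change 1.06, SE 0.389, adjusted p = 0.121), and DESeq2 and limma voom called 0. In vismodegib against BCC skin edgeR called 0 of 10, with 17% of all genes called, 0 members at an unadjusted p under 0.05 and 0 in DESeq2 and voom. In AFL against vismodegib skin edgeR called 0 of 10, with 9.15% of all genes called, 2 members at an unadjusted p under 0.05 (Cd4 and Cd8a) and 0 in DESeq2 and voom. The 95% intervals were wide in vismodegib against BCC skin, from -0.66 to 0.49 for Cd5 and from -1.15 to 1.20 for Cd3g, so that changes within these intervals were not excluded by these mice.

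**Figure D2:**
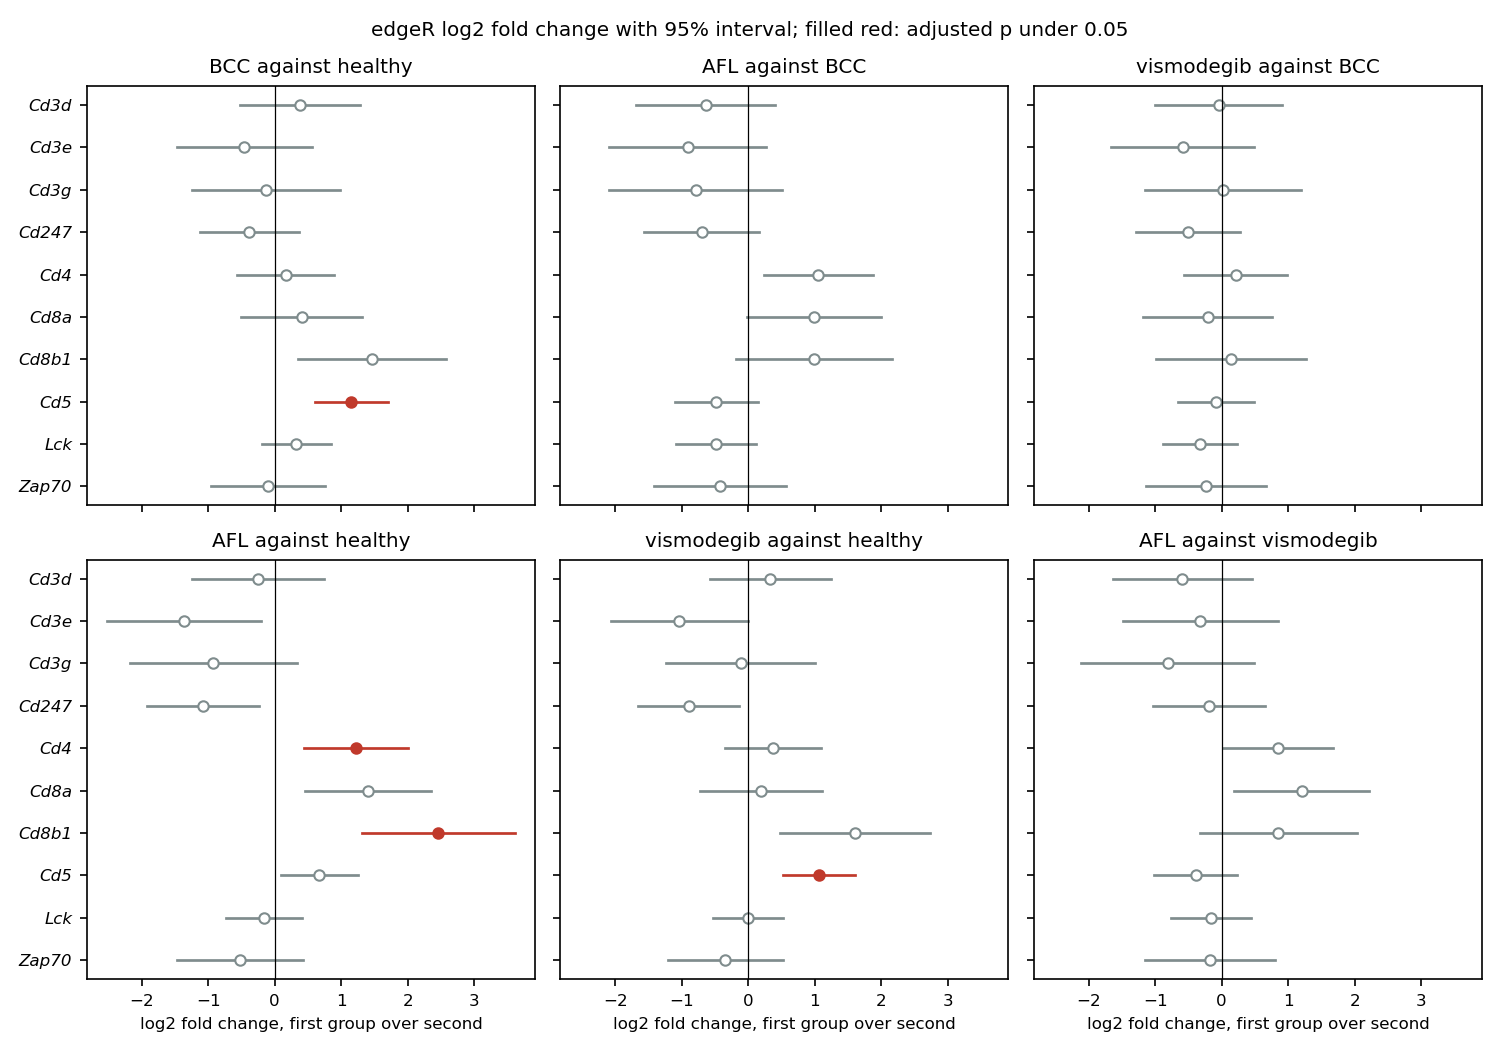
Log2 fold change (x axis, first group over second) of each of the 10 genes (y axis) in the 6 comparisons, with the 95% interval as a line and filled red points for an adjusted p under 0.05 in edgeR. Cd5 is red in BCC and in vismodegib against healthy skin, Cd4 and Cd8b1 are red in AFL against healthy skin, and no gene is red in the other 3 comparisons.

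The mice of both groups were fully apart for 2 members in BCC against healthy skin (Cd5 and Cd8b1, higher in BCC), where 5.18% of all genes were fully apart and higher. In AFL against healthy skin 2 were apart and higher (Cd4 and Cd8b1), against 14.7% of all genes, and 3 apart and lower (Cd3e, Cd3g and Cd247), against 11% of all genes. In AFL against BCC skin Cd4 was apart and higher, as were 11.5% of all genes, and Cd5 apart and lower, as were 7.34%. In vismodegib against healthy skin Cd5 was apart and higher (9.33% of all genes) and Cd247 apart and lower (6.78%). Cd4 was apart and higher in AFL against vismodegib skin (13% of all genes), and in vismodegib against BCC skin 0 members were apart, where 16.4% of all genes were, in either direction. The median log2 fold change of the members was 0.25 in BCC against healthy skin, -0.48 in AFL against BCC skin and -0.15 in vismodegib against BCC skin. Over all genes these medians were -0.0036, -0.04 and 0.05. Scaled by library size alone, the members' median in vismodegib against BCC skin was -0.60, where that of all genes was -0.30. Comparisons that share a control group share its mice and are not independent of each other.

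The CD3 chain genes sit together on chromosome 9. Cd3d and Cd3g point away from each other with their starts 1355 bases apart, and Cd3e starts 27825 bases from Cd3d. Because their transcripts serve 1 complex, the 250 bases before each start are shown, 5′ to 3′ on the gene's own strand, from RefSeq on GRCm38.p6. Capitals mark the letters of CAGGTG or CAGCTG (the motif of E proteins such as E2A and HEB), GGAAGT (Ets), CTTTGAT (Tcf1/Lef1) or TGTGGT (Runx), read on either strand. The windows are chr9:44981536-44981785 on the plus strand for Cd3d, and chr9:44980432-44980681 and chr9:45009612-45009861 on the minus strand for Cd3g and Cd3e.
Cd3d: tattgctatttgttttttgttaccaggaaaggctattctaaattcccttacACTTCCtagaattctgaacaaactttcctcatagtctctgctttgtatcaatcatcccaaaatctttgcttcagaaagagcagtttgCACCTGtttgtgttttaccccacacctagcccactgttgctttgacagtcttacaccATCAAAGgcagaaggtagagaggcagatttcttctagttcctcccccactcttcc
Cd3g: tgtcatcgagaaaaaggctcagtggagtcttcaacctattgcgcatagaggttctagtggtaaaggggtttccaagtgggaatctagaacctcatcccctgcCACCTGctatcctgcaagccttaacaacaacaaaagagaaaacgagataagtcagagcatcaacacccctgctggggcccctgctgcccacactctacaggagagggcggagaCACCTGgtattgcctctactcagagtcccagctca
Cd3e: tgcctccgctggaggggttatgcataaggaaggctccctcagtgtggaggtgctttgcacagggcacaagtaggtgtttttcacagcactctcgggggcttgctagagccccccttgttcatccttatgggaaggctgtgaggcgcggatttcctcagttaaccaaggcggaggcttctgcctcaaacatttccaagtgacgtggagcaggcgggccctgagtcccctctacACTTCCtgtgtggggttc
Of the 10 members, 8 have a window in the RefSeq table, each 300 bases long with 50 bases after the start, which are searched here but not shown. For Lck and Zap70, with 2 and 3 windows in it, the first listed was used, while the shares over all windows count every window. CAGGTG lay in 7 of these 8 windows, where 20.2% of all 32851 such windows hold it, and 8 of 8 held CAGGTG or CAGCTG, against 32.9% of all windows. GGAAGT lay in 5 of 8 (23.8% of all), CAGCTG in 2 (16.3%), TGTGGT in 1 (16.8%) and CTTTGAT in 1 (3.73%). A match is a description of the letters and not evidence of binding.

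Cd3e, which encodes the epsilon chain, measured 3.55, 4.42 and 1.94 CPM in AFL skin and 5.81, 2.04, 2.23 and 6.33 CPM in vismodegib skin. It measured 3.94, 2.29, 6.72 and 11.8 CPM in BCC skin and 5.74, 6.82, 5.88, 13.3 and 10.7 CPM in healthy skin. All 3 AFL mice lay below all 5 healthy mice, and the BCC mice spread from below the AFL median to the level of the highest healthy mice. In bulk skin, fewer T cells and less RNA per T cell cannot be told apart, here or for any gene below. Group means ran in the order AFL 3.30 ± 1.26, vismodegib 4.10 ± 2.28, BCC 6.19 ± 4.16 and healthy 8.48 ± 3.35 CPM (SD), and no neighbouring pair in that order passed the test.

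Cd3g, the gamma chain gene, measured 10.6, 10.4 and 4.82 CPM in AFL skin and 9.49, 3.80, 35.6 and 11.8 CPM in vismodegib skin. In BCC skin it measured 5.94, 11.6, 22.6 and 19.4 CPM, and in healthy skin 12.2, 11.1, 12.8, 26.5 and 19.3 CPM. The AFL mice again lay below all healthy mice, and the highest value of the series came from mouse 9. With that mouse the vismodegib mean was 15.2 ± 14.0 CPM (SD, n = 4), and without it 8.35 ± 4.10 CPM (SD, n = 3), close to the AFL mean of 8.62 ± 3.29 CPM.

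Cd3d, the delta chain gene, had its highest value in mouse 9 too, at 9.08 CPM, where the other vismodegib mice had 2.90, 2.07 and 3.32 CPM. The AFL mice had 4.09, 2.90 and 1.64 CPM, the BCC mice 2.72, 4.09, 6.13 and 4.88 CPM and the healthy mice 2.60, 2.60, 2.57, 5.07 and 4.28 CPM. All 4 groups overlapped. Cd247, the zeta chain gene, had 5.61, 5.61 and 2.40 CPM in AFL skin and 5.87, 3.44, 5.47 and 5.91 CPM in vismodegib skin, both wholly below healthy skin. It had 4.32, 4.47, 9.73 and 10.9 CPM in BCC skin and 7.57, 8.13, 7.40, 13.5 and 11.4 CPM in healthy skin. The BCC mice fell into a lower and a higher pair for Cd247, and the same 2 mice, 5 and 8, were highest of their group for all 4 chain genes.

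Over the 6 comparisons, edgeR's quasi-likelihood test called 0 of 24 fold changes of the 4 chain genes, with 4 at an unadjusted p under 0.05, 2 called by DESeq2 and 0 by voom. In AFL against healthy skin the log2 fold changes were -1.36 (SE 0.548) for Cd3e, -1.08 (SE 0.396) for Cd247, -0.93 (SE 0.593) for Cd3g and -0.26 (SE 0.468) for Cd3d. Their adjusted p in edgeR's quasi-likelihood test with Benjamini-Hochberg adjustment was 0.133, 0.102, 0.345 and 0.771. DESeq2 called Cd3e (adjusted p = 0.0477) and Cd247 (adjusted p = 0.0316) lower in AFL skin. The 95% intervals of edgeR, -2.52 to -0.20 for Cd3e and -1.92 to -0.24 for Cd247, did not include 0. In vismodegib against healthy skin Cd3e and Cd247 had log2 fold changes of -1.04 (SE 0.488) and -0.89 (SE 0.356), with adjusted p = 0.156 and 0.103 in edgeR. Without mouse 9, Cd3g had a log2 fold change of -0.97 in vismodegib against healthy skin in place of -0.11, and Cd3d -0.31 in place of 0.33. Against BCC skin without mouse 9, Cd3g had -0.81 in vismodegib skin in place of 0.02.

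The hair cycle differed between the mice. Within each group, the mouse with the highest mean log2 level of 17 growing-hair genes had the lowest mean log2 level of Cd3d, Cd3e and Cd3g, whereas between groups AFL skin was lower than healthy skin in both. The summed level of these hair genes was 41.1 to 665.1 CPM in AFL skin, 81.0 to 21880 CPM in vismodegib skin, 121.4 to 16780 CPM in BCC skin and 1602 to 44400 CPM in healthy skin. With the mean log2 level of these genes as a covariate, edgeR called Cd3e, Cd3g and Cd247 lower than healthy in both AFL skin (log2 fold changes -2.39, -2.65 and -1.98) and vismodegib skin (-1.84, -1.60 and -1.55). The adjusted p was 0.0264, 0.00761 and 0.00748 in AFL skin and 0.0308, 0.0385 and 0.00922 in vismodegib skin. All 3 AFL mice lie below every healthy mouse in summed growing-hair level, so that this covariate and the AFL group cannot be told apart in full.

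**Figure D3:**
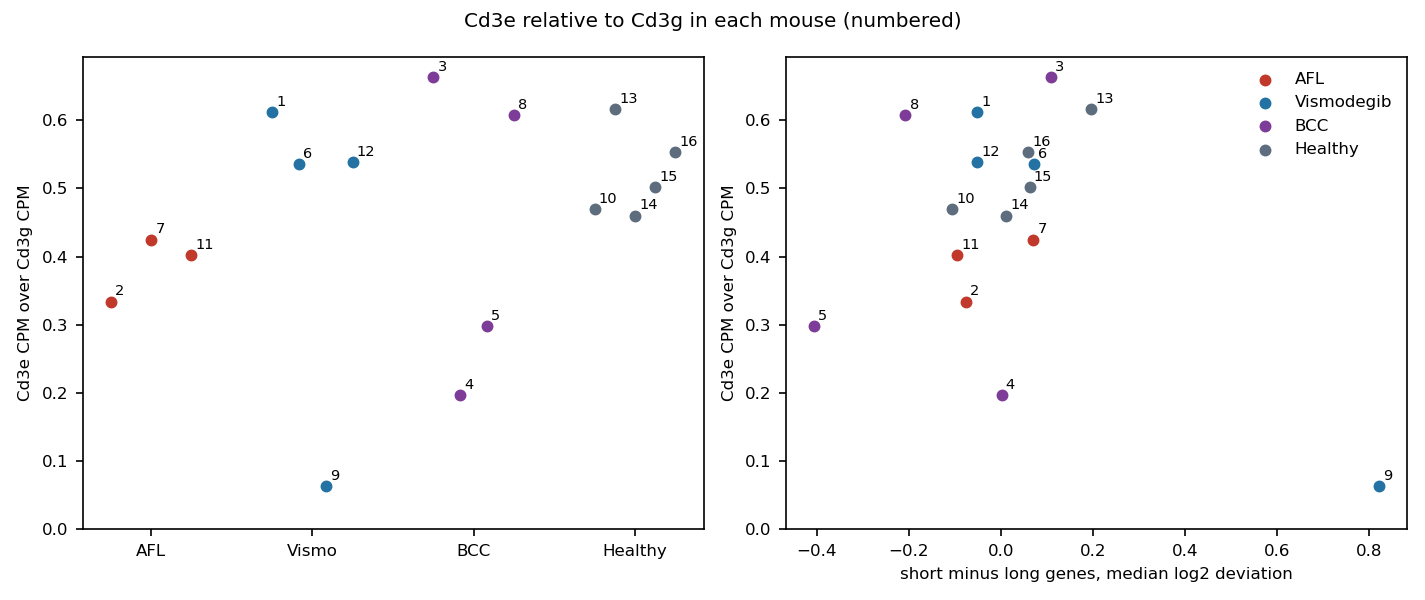
Left, the ratio of Cd3e to Cd3g (CPM over CPM, y axis) in each numbered mouse by group. Right, the same ratio against the median log2 deviation of short minus long genes in that mouse (x axis). Mouse 9 lies alone at 0.0626 and 0.821, while BCC mouse 4, at 0.197, has a short minus long value near 0.

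The chains of the complex did not keep one ratio to each other. Cd3e over Cd3g in CPM was 0.334, 0.425 and 0.402 in AFL skin and 0.612, 0.536, 0.0626 and 0.539 in vismodegib skin. It was 0.663, 0.197, 0.298 and 0.608 in BCC skin and 0.470, 0.616, 0.460, 0.502 and 0.553 in healthy skin. Healthy mice lay in a narrow band and all AFL mice lay below it, as did mouse 9 of the vismodegib group and mice 4 and 5 of the BCC group, with mouse 9 the lowest of all. Mouse 9's low value is that of the library with the strongest tilt towards short genes, whereas mice 4 and 5 had short minus long values of 0.00192 and -0.405. Cd3e and Cd3g have merged exon lengths of 1462 and 1023 bases. The part of the tilt in this ratio was not tested.

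Among the coreceptor genes, Cd4 and Cd8b1 rose in AFL skin relative to healthy skin. Cd4 measured 12.6, 11.8 and 8.95 CPM in AFL skin and 7.45, 3.17, 6.21 and 7.89 CPM in vismodegib skin. It measured 3.79, 5.50, 4.76 and 7.33 CPM in BCC skin and 3.78, 3.56, 2.84, 8.65 and 5.02 CPM in healthy skin. The lowest AFL mouse lay above every mouse of the other 3 groups. In AFL against healthy skin the Cd4 log2 fold change was 1.22 (SE 0.366), a 2.33-fold rise, with an adjusted p of 0.0473 in edgeR's quasi-likelihood test. This call sits at the edge of the threshold. It ended when any 1 mouse other than healthy mouse 15 was left out of these 2 groups (log2 fold changes 1.06 to 1.32, adjusted p 0.0709 to 0.16), and with the growing-hair covariate (log2 fold change 0.44, adjusted p = 0.673).

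Cd8a measured 1.59, 1.49 and 0.667 CPM in AFL skin and 0.512, 0.396, 0.797 and 0.472 CPM in vismodegib skin. It measured 0.550, 0.470, 0.871 and 0.599 CPM in BCC skin and 0.384, 0.262, 0.221, 0.782 and 0.679 CPM in healthy skin. AFL mice 2 and 7 were above every other mouse, while AFL mouse 11 lay among the rest. The log2 fold change in AFL against healthy skin was 1.40 (SE 0.447), with an adjusted p of 0.0623 in edgeR and 0.0337 in DESeq2.

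Cd8b1 measured 0.983, 0.732 and 0.372 CPM in AFL skin and 0.137, 0.609, 0.531 and 0.267 CPM in vismodegib skin. It measured 0.406, 0.294, 0.435 and 0.245 CPM in BCC skin and 0.0887, 0.146, 0.0276, 0.203 and 0.145 CPM in healthy skin, where 1 to 10 counts lay behind each mouse. AFL and BCC mice were all above all healthy mice. In AFL against healthy skin Cd8b1 rose by 2.46 on the log2 scale (SE 0.544), with an adjusted p of 0.00748 in edgeR's quasi-likelihood test, and without AFL mouse 2 the value was 2.12 (adjusted p = 0.052). In BCC against healthy skin the log2 fold change was 1.47 (SE 0.527, adjusted p = 0.19 in edgeR) and in vismodegib against healthy skin 1.60 (SE 0.529, adjusted p = 0.0583). Between the induced groups Cd8b1 passed no test, and AFL skin stood 0.99 (SE 0.552) above BCC skin on the log2 scale.

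Cd4 and Cd8a are not read from T cells alone, since in mice some dendritic cells and macrophages make them as well. Summed macrophage markers (9 genes) were 2027 to 2122 CPM in AFL skin, 484.9 to 1233 CPM in vismodegib skin, 252.6 to 398.2 CPM in BCC skin and 295.1 to 803.6 CPM in healthy skin. All 9 markers rose in AFL against healthy skin (9.24% of all genes called) and 8 of 9 in AFL against BCC skin (7.75%). Markers of plasmacytoid dendritic cells (7 genes) summed to 180.3 to 267.4 CPM in AFL skin, 66.7 to 205.8 CPM in vismodegib skin, 60.2 to 198.4 CPM in BCC skin and 82.3 to 204.2 CPM in healthy skin. Those of type 1 conventional dendritic cells (7 genes) summed to 82.4 to 142.2, 24.2 to 59.5, 39.0 to 47.8 and 31.5 to 71.7 CPM in these groups in the same order. Of the 7 plasmacytoid markers, 3 rose and 0 fell in AFL against BCC skin (Siglech, Bst2 and Klk1). Tcf4, also in that sum, averaged 81.3 ± 8.56 CPM in AFL skin and 98.2 ± 51.8 CPM in BCC skin. Of the 7 type 1 markers, 2 rose (Irf8 and Itgax) and 0 fell in AFL against BCC skin. Xcr1, Clec9a, Batf3, Flt3 and Zbtb46 were not called. No marker of these 3 lists was at 0 in a whole group, and their part in the Cd4 and Cd8a values was not tested.

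**Figure D4:**
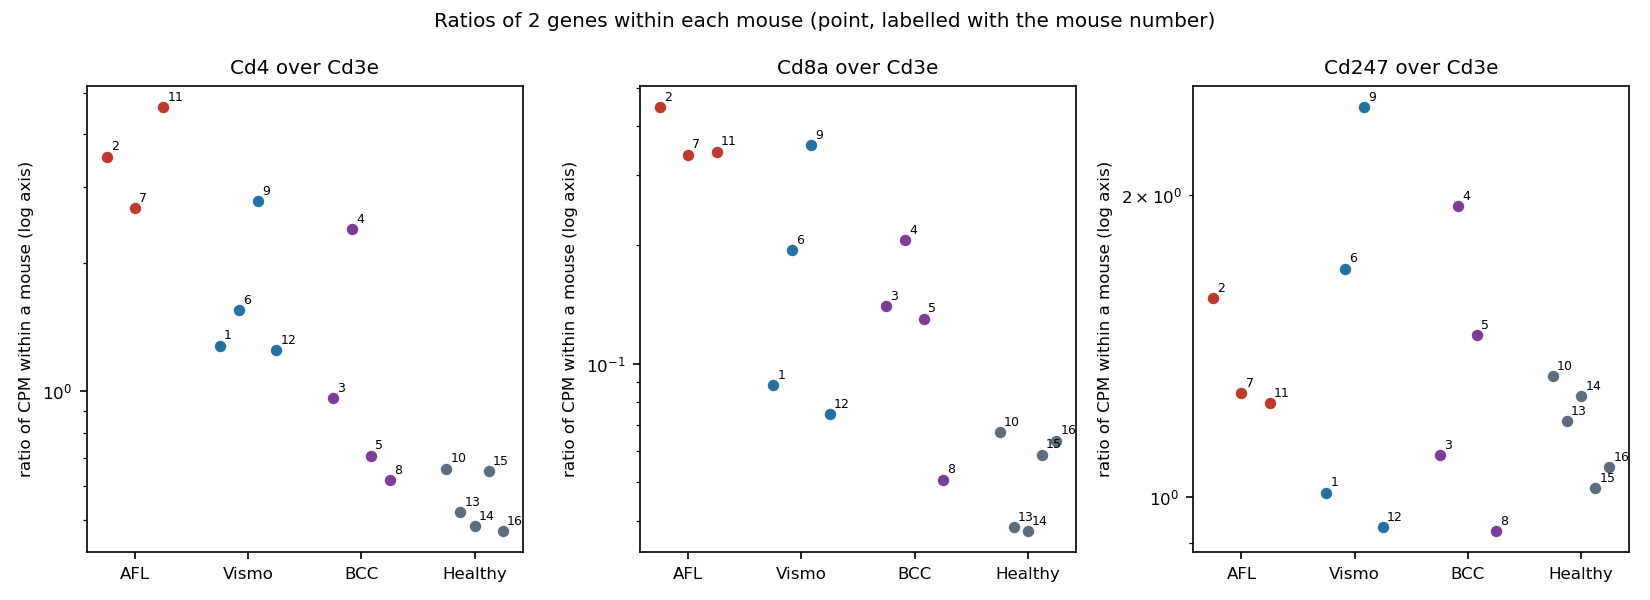
Ratio of Cd4, Cd8a and Cd247 to Cd3e within each mouse (y axes, log scale, CPM over CPM), with 1 numbered point a mouse, by group (x axis). The AFL mice lie between 2.68 and 4.62 for Cd4 over Cd3e and the healthy mice between 0.471 and 0.660, while for Cd247 over Cd3e all groups overlap.

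Set against Cd3e in the same mouse, Cd4 and Cd8a were higher in every AFL mouse than in every BCC mouse, while Cd247 overlapped. Cd4 over Cd3e was 3.54, 2.68 and 4.62 in AFL skin, 1.28, 1.55, 2.79 and 1.25 in vismodegib skin, 0.963, 2.40, 0.708 and 0.621 in BCC skin and 0.660, 0.521, 0.484, 0.651 and 0.471 in healthy skin. The AFL minus BCC difference of the mean log2 ratio was 1.78 for Cd4 and 1.56 for Cd8a. Each had p = 0.0571 in a two-sided exact permutation test over 35 splits of these mice. For each gene, another split gave a difference at least as large in size. For Cd247 the AFL minus BCC difference was 0.06 (exact permutation p = 0.886). The BCC minus healthy difference was 0.84 for Cd4 (exact permutation p = 0.0238), 1.05 for Cd8a (p = 0.0476) and 0.15 for Cd247 (p = 0.548). Vismodegib minus BCC gave 0.68 (exact permutation p = 0.229), 0.34 (p = 0.629) and 0.11 (p = 0.8) for the same 3 genes. After adjustment over the 9 ratio tests none passed, and the smallest adjusted p was 0.129. In the plot of ratios, BCC mouse 4 and vismodegib mouse 9, whose Cd3e was low against Cd3g, stand above the rest of their groups for all 3 genes. Without mouse 4, the BCC minus healthy difference for Cd4 was 0.44 (exact permutation p = 0.0714), and without mouse 9 the vismodegib minus BCC difference for Cd8a was -0.06 (exact permutation p = 0.886).

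Cd5 rose in BCC skin and in vismodegib skin relative to healthy skin. It measured 5.94, 4.38, 7.59 and 7.23 CPM in vismodegib skin, 8.17, 6.67, 6.03 and 5.83 CPM in BCC skin and 3.37, 2.36, 2.48, 4.20 and 2.59 CPM in healthy skin. Every vismodegib and BCC mouse lay above every healthy mouse. The AFL mice had 4.88, 5.79 and 3.69 CPM, below all BCC mice and, for mouse 11, within the healthy range. The log2 fold change was 1.15 (SE 0.256) in BCC against healthy skin, with an adjusted p of 0.0196 in edgeR's quasi-likelihood test. It was 1.07 (SE 0.256, adjusted p = 0.0159) in vismodegib against healthy skin and 0.67 (SE 0.276, adjusted p = 0.14) in AFL against healthy skin. Both calls sit near the threshold. The BCC call ended without BCC mouse 4 or healthy mouse 13, 14 or 16 (log2 fold changes 1.08 to 1.16, adjusted p 0.0567 to 0.0676 in edgeR). The vismodegib call held without mouse 9 (0.96, adjusted p = 0.0458) and ended without healthy mouse 14 (0.96, adjusted p = 0.0502), with library size alone (0.76, adjusted p = 0.0804) and with the growing-hair covariate (0.93, adjusted p = 0.0639). The 250 bases before the Cd5 start (chr19:10738975-10739224, minus strand, GRCm38.p6) are shown because Cd5 was the member that passed in BCC skin. The capitals mark the same motifs.
Cd5: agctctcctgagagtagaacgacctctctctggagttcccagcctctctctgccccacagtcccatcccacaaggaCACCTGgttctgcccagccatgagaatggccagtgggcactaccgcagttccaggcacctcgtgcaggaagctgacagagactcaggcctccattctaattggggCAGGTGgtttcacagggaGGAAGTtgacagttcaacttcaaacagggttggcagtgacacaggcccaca
B cells can carry CD5 as well. Their defining marker Ms4a1 reached at most 0.0951 CPM in any mouse, and Cd79b averaged 2.43 ± 0.648 CPM in AFL skin, 0.543 ± 0.238 CPM in vismodegib skin, 0.349 ± 0.202 CPM in BCC skin and 0.384 ± 0.272 CPM in healthy skin (SD). Of the 4 B cell markers that passed the filter on low counts, 3 rose in AFL against BCC and against healthy skin. These were Cd79b, Cd22 and Fcrla, where 7.75% and 9.24% of all genes were called. Cd22 averaged 12.9 ± 4.15 CPM in AFL skin and 0.484 ± 0.152 CPM in BCC skin. In BCC and in vismodegib against healthy skin 0 of the 4 were called (2.82% and 11.6% of all genes). The part of B cells in the Cd5 values was not tested.

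The kinase genes Lck and Zap70 passed no test. Lck lay between 4.31 and 9.39 CPM in AFL skin, 6.74 and 10.9 CPM in vismodegib skin, 8.20 and 12.3 CPM in BCC skin and 7.10 and 9.24 CPM in healthy skin. Zap70 lay between 0.667 and 2.84, 0.974 and 2.73, 1.68 and 2.92, and 1.55 and 3.30 CPM in the same groups. All groups overlapped for both genes. The largest log2 fold change of Lck was -0.49 (SE 0.285) in AFL against BCC skin and that of Zap70 was -0.52 (SE 0.447) in AFL against healthy skin, each the furthest from 0 of the 6 comparisons. Lck, Zap70 and the zeta chain gene Cd247 are also expressed by NK cells. Their 9 markers summed to 4.72 to 12.3 CPM in AFL skin, 1.80 to 7.28 CPM in vismodegib skin, 2.40 to 10.3 CPM in BCC skin and 5.48 to 10.7 CPM in healthy skin. Klra8 was at 0 in the last 3 groups and Klra4 in vismodegib and BCC skin. Of the 6 NK cell markers that passed the filter on low counts, 2 rose in AFL against BCC skin and in AFL against healthy skin (the receptor gene Ncr1 and the granzyme gene Gzma), and 0 fell. Of all genes, 7.75% and 9.24% were called in these comparisons. Prf1, the perforin gene, averaged 2.39 ± 1.37 CPM in AFL skin, 1.87 ± 0.788 CPM in vismodegib skin, 3.91 ± 2.89 CPM in BCC skin and 5.38 ± 1.74 CPM in healthy skin (SD). The part of NK cells in the Lck, Zap70 and Cd247 values was not tested.

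Of 37 genes of T cell receptor signalling, 6 rose and 0 fell in AFL against BCC skin, where 7.75% of all genes were called. The list, whose median was 0.20, also holds genes that dampen the signal, such as Sla and Ptpn6. Scaled by library size alone, 5 rose and 0 fell. Fyb, the adaptor ADAP, measured 51.9, 56.1 and 63.8 CPM in AFL skin, against 7.73, 14.3, 19.6 and 15.9 CPM in BCC skin, a log2 fold change of 1.99 (SE 0.291, adjusted p = 0.000426 in edgeR). Vav1, an exchange factor for small GTPases, measured 37.9, 37.2 and 55.6 CPM in AFL skin, against 11.3, 8.82, 12.8 and 12.2 CPM in BCC skin. Its log2 fold change was 1.95 (SE 0.310, adjusted p = 0.000783 in edgeR). Lcp2, the adaptor SLP-76, rose by 2.33 on the log2 scale (SE 0.375, adjusted p = 0.000873 in edgeR), and Sla and Ptpn6 rose too. Outside T cells, Fyb, Vav1, Lcp2, Sla and Ptpn6 are also made by myeloid cells, whose macrophage markers, given above, were highest in AFL skin; their part was not tested.

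In vismodegib against BCC skin 2 of the 37 signalling genes rose and 2 fell, a smaller share than the 17% of all genes called, whereas with library size alone 1 rose and 3 fell, and without mouse 9 Nfatc1 was no longer called. Prkcq, protein kinase C theta, measured 55.7, 33.8, 56.1 and 36.4 CPM in vismodegib skin, against 15.4, 9.64, 19.7 and 13.4 CPM in BCC skin, with log2 fold change 1.65 (SE 0.306, adjusted p = 0.00259 in edgeR). Vav1 rose by 1.07 on the log2 scale (SE 0.289, adjusted p = 0.0213). The 6 neutrophil markers summed to 2422 to 49360 CPM in vismodegib skin and 25.2 to 135.2 CPM in BCC skin. All 6 rose there, where 17% of all genes were called. Which cells the Prkcq and Vav1 values came from was not tested. Fyn, a Src family kinase found in many cell types, fell by 0.89 on the log2 scale (SE 0.171, adjusted p = 0.00313), and Nfatc1, a transcription factor that hair follicle stem cells also use, fell by 1.19 (SE 0.348, adjusted p = 0.03). In BCC against healthy skin edgeR called 0 of 37, where 2.82% of all genes were called. There 3 genes had an unadjusted p under 0.05, DESeq2 called 2 and voom 0, and without mouse 9 edgeR called Cblb higher. The 3 smallest p there belonged to Nfatc1 (log2 fold change 1.08, SE 0.325), Cblb, a ubiquitin ligase (0.67, SE 0.203), and Prkcq (-0.71, SE 0.287).

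**Figure D5:**
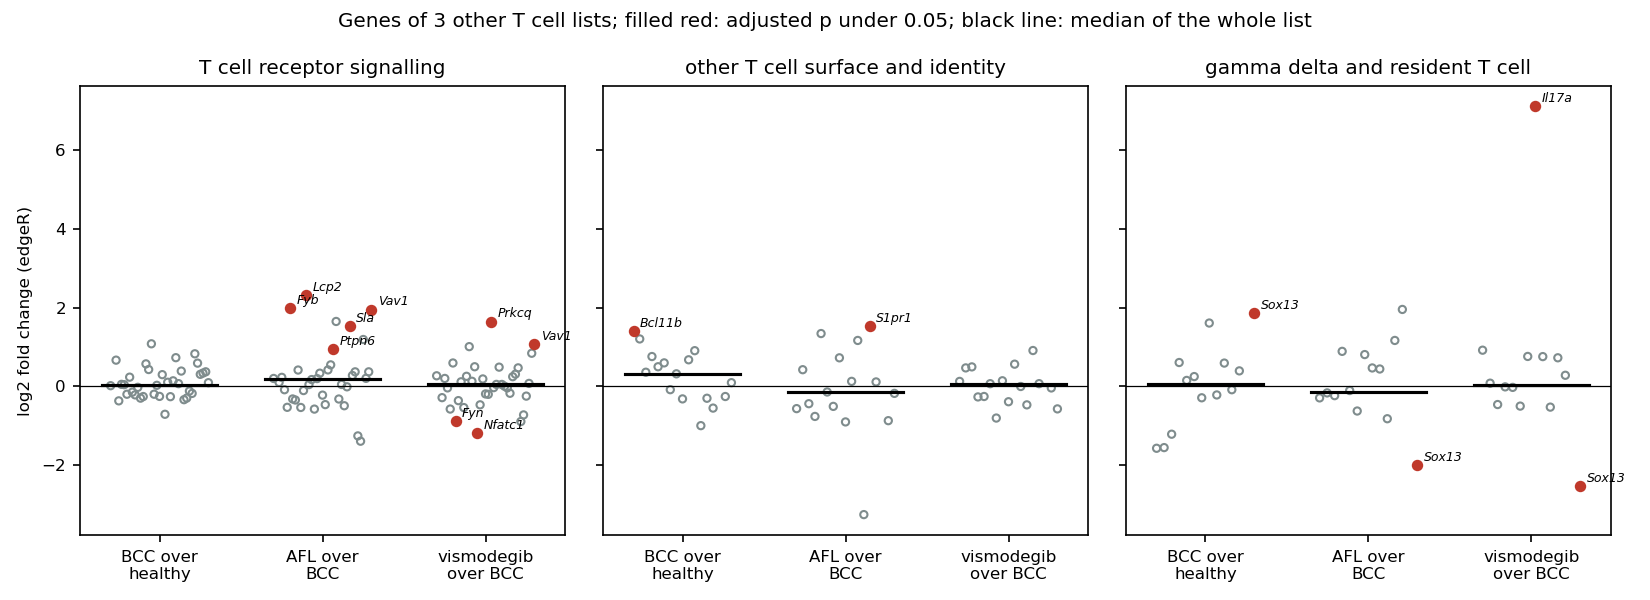
Log2 fold change (y axis, edgeR) of the tested genes of 3 other T cell lists in BCC over healthy, AFL over BCC and vismodegib over BCC skin (x axis), with 1 point a gene, red where the adjusted p is under 0.05 and a line for the median of the whole list. Genes not reported here have no point. List medians lie between -0.14 and 0.32, 5 signalling genes are red in AFL over BCC, and the fitted value of Il17a depends on the prior count because BCC skin held few reads of it.

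Of 17 other T cell surface and identity genes, 1 rose in BCC against healthy skin, 2 in AFL against BCC skin and 1 in vismodegib against BCC skin, and 0 fell in any of these. Of all genes, 2.82%, 7.75% and 17% were called in these comparisons. Scaled by library size alone, 1 rose in AFL against BCC skin and 1 fell in vismodegib against BCC skin. S1pr1, the receptor that guides lymphocytes out of tissue and that blood vessels also make, rose by 1.54 on the log2 scale (SE 0.432, adjusted p = 0.0395) in AFL against BCC skin. Bcl11b, a T lineage factor that keratinocytes also express, rose by 1.40 (SE 0.240, adjusted p = 0.00288) in BCC against healthy skin. Tcf7, the T cell factor TCF1, had a log2 fold change of -0.87 (SE 0.274, adjusted p = 0.0663) in AFL against BCC skin, and Thy1, a surface marker of mouse T cells and fibroblasts, -0.57 (SE 0.282, adjusted p = 0.171) in vismodegib against BCC skin. Tcf7 fell in AFL against healthy skin (log2 fold change -1.13, SE 0.268, adjusted p = 0.0121 in edgeR). Ccr7, the chemokine receptor that leads T cells and dendritic cells to lymph nodes, averaged 5.10 ± 1.44 CPM in BCC skin and 2.21 ± 0.850 CPM in healthy skin. All BCC mice lay above all healthy mice, as for 5.18% of all genes (log2 fold change 1.20, SE 0.386, adjusted p = 0.13 in edgeR). Ccr7 rose in AFL and in vismodegib against healthy skin (log2 fold changes 1.63 and 1.67, adjusted p = 0.0185 and 0.0132 in edgeR). Cd27, a costimulatory receptor of the TNF receptor family, averaged 2.82 ± 0.665 CPM in BCC skin and 1.67 ± 0.575 CPM in healthy skin, where the mice overlapped (adjusted p = 0.33).

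Of 14 gamma delta and tissue-resident T cell genes, 1 rose in BCC against healthy skin, 1 fell in AFL against BCC skin, and 1 rose and 1 fell in vismodegib against BCC skin. The shares of all genes called in these comparisons were 2.82%, 7.75% and 17%. Without mouse 9, Klrk1, the activating receptor NKG2D, was called higher in AFL against BCC skin as well. Il17a, the cytokine IL-17A, had 1.64, 1.55, 8.87 and 1.76 CPM in vismodegib skin, 48 to 167 counts a mouse. It had 0.0634, 0 and 0.0310 CPM in AFL skin, 0, 0.0294, 0 and 0.0545 CPM in BCC skin and 0 in 4 of the 5 healthy mice, with at most 2 counts in any of these. All 4 vismodegib mice lay far above every other mouse, with mouse 9 highest (adjusted p = 0.000389 against BCC skin in edgeR), and the call held without mouse 9. The vismodegib and BCC mice overlapped for Cd3d, Cd3e, Cd3g and Cd247. Mouse 9 was also the highest of the 16 mice for Cd3g (35.6 CPM) and Cd3d (9.08 CPM), while its Cd3e was 2.23 CPM. Sox13, a factor of IL-17 producing gamma delta T cells that is also expressed outside the immune system, averaged 25.4 ± 8.15 CPM in AFL skin, 17.4 ± 13.2 CPM in vismodegib skin, 101.1 ± 31.2 CPM in BCC skin and 27.7 ± 3.84 CPM in healthy skin (SD). Sox13 changed in all 3 comparisons, by 1.87 (SE 0.397) in BCC against healthy skin, -1.99 (SE 0.478) in AFL against BCC skin and -2.54 (SE 0.439) in vismodegib against BCC skin on the log2 scale. Blk, a Src family kinase of B cells and IL-17 producing gamma delta T cells, averaged 0.510 ± 0.111 CPM in BCC skin and 1.5 ± 0.69 CPM in healthy skin (log2 fold change -1.56, SE 0.464, adjusted p = 0.0978). The gene listed as 5830411N06Rik averaged 0.761 ± 0.232 CPM in BCC skin and 2.27 ± 1.03 CPM in healthy skin (adjusted p = 0.208). Jaml, an adhesion receptor of epidermal gamma delta T cells and of neutrophils, averaged 13.1 ± 1.23 CPM in AFL skin and 5.83 ± 1.59 CPM in BCC skin. Every AFL mouse lay above every BCC mouse, as for 11.5% of all genes (log2 fold change 1.17, SE 0.427, adjusted p = 0.119). The p-values of these 3 genes are from edgeR, and none passed in the comparison given. Against healthy skin, Blk fell in AFL and in vismodegib skin (log2 fold changes -1.72 and -1.475, adjusted p = 0.0489 and 0.0496 in edgeR). The genes of the T cell receptor chains themselves were not analysed here.

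The genes whose levels ran most like the CD3 chains were ranked by Pearson's r over the 16 mice with the mean log2 level of Cd3d, Cd3e and Cd3g. The 10 highest outside the members were Ces1d (r = 0.933), Cd207 (0.891), Tnfaip8l3 (0.878), Cd96 (0.87), Tspan8 (0.869), Skap1, Cd7 and Retn (0.862 each), Ccer2 (0.861) and Cldn11 (0.86). Spearman's rho of these 10 lay between 0.668 (Skap1) and 0.891 (Cd7). These mice share libraries, depth and hair phase across all genes, so the values are a description. Cd96 and Cd7 are surface proteins of T and NK cells, Skap1 is a T cell adaptor and Cd207, langerin, marks Langerhans cells. The rest of the 10, with Ces1d at the highest r, are not assigned to a cell type here. Cd207 averaged 11.7 ± 4.90 CPM in AFL skin, 18.5 ± 9.65 CPM in vismodegib skin, 23.0 ± 7.65 CPM in BCC skin and 20.5 ± 9.85 CPM in healthy skin. With the group means removed, the 10 highest were Calm5 (r = 0.963), Clec2d (0.938), Cd7 (0.927), Cfap57 (0.926), Ces1d (0.92), Slc22a4 (0.916), Lat (0.909), Sla2 (0.905), Mb21d2 (0.899) and Spaar (0.897). Lat, the scaffold that Zap70 phosphorylates, averaged 4.76 ± 1.60 CPM in AFL skin, 6.11 ± 1.82 CPM in vismodegib skin, 5.12 ± 0.616 CPM in BCC skin and 6.30 ± 2.11 CPM in healthy skin (SD). Cd7 averaged 5.31 ± 1.94 CPM in AFL skin, 6.62 ± 2.43 CPM in vismodegib skin, 6.91 ± 3.65 CPM in BCC skin and 12.5 ± 4.29 CPM in healthy skin.

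The paired libraries show how far a piece of skin can be repeated. Between the 2 libraries of AFL mouse 11 and of vismodegib mouse 12 the chain genes differed by 1.02-fold to 1.34-fold. Between those of healthy mouse 16, to which the labels give different ages, they differed by 1.53-fold (Cd3g) to 1.90-fold (Cd3d). The genes with few reads differed more, with 4.03-fold for Cd8a in mouse 16 and 3.86-fold for Cd8b1 in mouse 11.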

How the data were processed

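Libraries came from RNA enriched with oligo dT primers and a stranded kit, per the labels' protocols. The deposited values are expected counts per gene symbol, not normalised, made with Bowtie2 and RSEM against GRCm39 per the submitters' processing notes. For versions, annotation and strand setting the sources used here give nothing, so sense and antisense reads cannot be told apart. Of the values, 3.42% are not whole, and all were rounded. Libraries of 1 mouse were summed. In edgeR 4.0.16 (R 4.3.3), filterByExpr kept 15760 genes and removed 2761. All 16 mice entered a single quasi-likelihood model (TMM scaling, robust dispersions) that held no term but the group. Benjamini-Hochberg adjustment ran over all genes tested, and "rose" or "fell" means an adjusted p under 0.05. CPM were computed on the scaled library sizes and are given as mean ± SD over mice. Logs of CPM used a pseudocount of 0.1. Ratios within a mouse were compared with a two-sided exact permutation test. Levels per kilobase used merged exons of GENCODE M21 on GRCm38, not the build of the counts. The fit was tested on simulated data.

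The 10 members and all gene lists were chosen with earlier results of these data known. In each of the other T cell lists, the 3 genes with the smallest p in each of 3 comparisons were named, apart from a few genes that are counted with their lists but not reported here, and further genes named (Sla, Ptpn6) were chosen after their values were seen. Whether mice come from separate litters is not stated, and p-values measure the spread between these mice. Alternatives were DESeq2 1.42.0, limma 3.58.1 voom with all 19 libraries, RLE scaling, library size alone, other filters, other replicate units, covariates, the replicate number as a block and leaving out each mouse. The proteins of the members and the T cell receptor chain genes were not analysed here.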

Additional observations from a re-analysis of the deposited data

Results flagged for a closer look

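A mouse that stood far from the others of its group was looked for in the 10 members, in the other named genes and in the 4 ratios given per mouse, over 159 groups of 4 or 5 mice. No member passed the cut used, though mouse 9 had 35.6 CPM of Cd3g, where the other vismodegib mice had 3.80 to 11.8 CPM. AFL skin, with 3 mice, was not looked at. In all, 5 values passed. By chance 1 in 20 groups, or 7.95 here, would show such a value if levels were normally distributed, which was not checked for these 5 values or the rest. Of the 5 values, 4 came from vismodegib mouse 9, the library with the low scaling factor. Its ratio of Cd3e to Cd3g was 0.0626, where the other 3 vismodegib mice lay between 0.536 and 0.612. Its Il17a level was 8.87 CPM, where the others lay between 1.55 and 1.76 CPM. Its Fyn level was 26.1 CPM, below the 35.8 to 37.3 CPM of the others, and its Ccer2 level was 4.25 CPM, above their 0.94 to 1.3 CPM. The remaining value was the Il17a level of healthy mouse 15, at 0.0289 CPM, where the other 4 healthy mice had 0.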

How the results depend on the processing

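The number of members called in BCC against healthy skin was 1. It was 0 with the replicate number as a block, and 0 to 1 when 1 mouse was left out, with 0 without BCC mouse 4 or healthy mouse 13, 14 or 16. In AFL against BCC skin the block gave 1 in place of 0 (Cd4, log2 fold change 1.28, adjusted p = 0.0392 in edgeR). In AFL against healthy skin the count of 2 became 5 with DESeq2, 1 with voom, 1 with library size alone, 1 with a filter of 1 CPM in 3 mice, 4 with 19 libraries as replicates, 4 with the growing-hair covariate and 0 to 3 when 1 mouse was left out, with 0 without AFL mouse 2 and 3 without healthy mouse 15 (Cd8a as well). In vismodegib against healthy skin the count of 1 became 2 with DESeq2, 0 with library size alone, 2 with 19 libraries, 2 with the libraries of mouse 16 taken apart, 0 with the block, 3 with the growing-hair covariate (Cd3e, Cd3g and Cd247, and no longer Cd5) and 0 to 2 when 1 mouse was left out. The block also ended the Cd5 calls in BCC (log2 fold change 1.13, adjusted p = 0.0895 in edgeR) and vismodegib against healthy skin (1.04, adjusted p = 0.0569). The filter of 1 CPM in 3 mice left Cd8b1, whose highest value was 0.983 CPM, untested. The causes of the other changes were not tested, and leaving out 1 mouse also lowers the degrees of freedom. When 1 mouse was left out, the difference of log2 ratios to Cd3e ranged for Cd247 from -0.104 to 0.245 in AFL minus BCC, -0.0364 to 0.312 in BCC minus healthy and -0.154 to 0.298 in vismodegib minus BCC, and for Cd8a from -0.0574 to 0.649 in vismodegib minus BCC.

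Over the members' fold changes, 1059 alternative values kept their direction and side of the threshold, 66 values that were not called changed sign, 18 became called and 21 lost their call; none that was called changed sign. Library size alone, without the factor that sets mouse 9 apart, moved the median log2 fold change of all genes to -0.30 in vismodegib against BCC, -0.25 in vismodegib against healthy, -0.18 in AFL against BCC and 0.16 in AFL against vismodegib. The share of calls that were higher became 16.9% in place of 47.2%, 39.7% in place of 65% and 87.6% in place of 73.1% in the vismodegib against BCC, vismodegib against healthy and AFL against vismodegib comparisons. The members' median became -0.60 in vismodegib against BCC and turned to -0.19 in vismodegib against healthy and 0.04 in AFL against vismodegib. In their deviations from the group means, same-numbered mice of different groups had a median r of -0.149, and different-numbered mice -0.0154. Of the 21 same-numbered pairs, 7 had r over 0.1 (range -0.378 to 0.631). These values do not settle whether the numbers pair the mice. The main fit does not pair them, and the block is given as an alternative. Cd8a and Cd8b1 are limited by their low counts.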
